A study of Mus musculus with 9 samples.

Results

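The levels of 9 genes with products known from the uterus were followed in mouse oviduct and in tumors of the oviduct: Prap1, Fuom, Spp1, Sprr2f, Guca2b, Ltf, Lcn2, Kap and Chil1. They are 9 of the 19435 genes in the deposited table, each found there by its symbol as 1 entry, and they were selected on their high levels in tumors of these same libraries, with attention to which tumors shared them. The levels in tumors against oviducts are therefore given as a description, with no test. Messenger RNA was sequenced from 9 untreated tissue samples. Oviducts 1 to 3 carried Dicer1+/D1693N, oviducts 4 and 5 were Dicer1+/+, and primary tumors 1 to 4 were Dicer1ko/D1693N, so D1693N was present in all groups except the Dicer1+/+ oviducts. DICER1 is the RNase that cuts miRNA precursors, and D1693N changes a residue of one of its catalytic domains. The strain, the age, the stage of the estrous cycle and any Cre driver of the knockout allele are not given in the sources used here. No source says that the samples of a group came from separate animals, so errors and p-values measure the spread between these samples.

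The lining of the uterus and oviduct is a secretory epithelium whose output follows ovarian hormones. Estradiol binds the receptor ESR1, which binds DNA at estrogen response elements or through other factors, and progesterone acts through PGR and often opposes it. Lactoferrin (Ltf) is a textbook estrogen-induced secretion of the mouse uterus. Prap1 encodes a proline-rich acidic protein secreted by uterine and intestinal epithelium. Spp1 encodes osteopontin, a phosphoprotein that binds integrins and CD44. Lcn2 encodes lipocalin 2, which binds bacterial siderophores. Guca2b encodes uroguanylin, the peptide ligand of guanylate cyclase C, and Kap a protein of the kidney tubule under androgen control. Chil1 encodes a chitinase-like lectin. The common name of the group does not cover every gene: Fuom encodes a fucose mutarotase, an enzyme and not a secreted protein, and Sprr2f a small proline-rich protein of the cornified envelope. Ltf, Lcn2 and Chil1 are also products of neutrophils, and Spp1 and Chil1 of macrophages. No sample was given a hormone, so the response of these genes to estrogen was not measured.

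Libraries held 8504993 to 12526078 reads. Levels below are normalized reads, that is, reads scaled by the size factor of their library. Ranks, and levels given per kilobase, are also scaled by exon length. The ratio of Fuom to Prap1, the shares of reads and the summed levels of gene lists are not. Differences are on the deposited log2 scale, which understates changes of genes with low read numbers. Between tumors and oviducts, 1269 of all genes (6.53%) were called higher and 2356 (12.1%) lower by limma, where a call needed both an adjusted p under 0.05 and a log2 difference of 1 or more in size. The median difference of all genes was -0.05. Ovgp1, the oviduct glycoprotein, was at 78144 to 150619 normalized reads in the oviducts and fell to 8071, 11678, 8061 and 112 in tumors 1 to 4 (difference -4.88 ± 1.13, SE, adjusted p = 0.00857). Epcam, which marks epithelium, was at 2190.1 to 3025 normalized reads in the oviducts and 1274, 2597, 1028 and 4357 in tumors 1 to 4. In tissue, fewer cells of a type and less RNA per cell cannot be told apart.

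The start regions of 4 of the genes are shown first, because Prap1 and Fuom lie together and moved together, and because Ltf and Sprr2f stand for the genes that were highest in tumors 2 and 4. Each is the RefSeq window on GRCm38.p6 from 250 bases before to 50 bases after the start, 5′ to 3′ on the gene's strand. Capitals mark each core repeat of the estrogen response element, GGTCA (the half-site), read on either strand (TGACC on the other).
Prap1 at chr7:140093146-140093445, plus strand: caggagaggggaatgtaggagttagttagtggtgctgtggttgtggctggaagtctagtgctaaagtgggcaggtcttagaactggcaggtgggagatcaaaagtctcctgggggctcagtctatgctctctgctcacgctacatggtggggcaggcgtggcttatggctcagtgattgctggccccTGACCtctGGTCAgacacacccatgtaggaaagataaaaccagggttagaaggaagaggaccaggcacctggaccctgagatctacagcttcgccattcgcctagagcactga
Fuom at chr7:140102392-140102691, minus strand: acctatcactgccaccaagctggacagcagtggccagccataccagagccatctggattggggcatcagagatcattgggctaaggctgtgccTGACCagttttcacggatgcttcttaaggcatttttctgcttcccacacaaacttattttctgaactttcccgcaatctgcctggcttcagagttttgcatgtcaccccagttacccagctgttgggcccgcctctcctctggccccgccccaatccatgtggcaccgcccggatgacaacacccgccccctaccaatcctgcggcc
Ltf at chr9:111019042-111019341, plus strand: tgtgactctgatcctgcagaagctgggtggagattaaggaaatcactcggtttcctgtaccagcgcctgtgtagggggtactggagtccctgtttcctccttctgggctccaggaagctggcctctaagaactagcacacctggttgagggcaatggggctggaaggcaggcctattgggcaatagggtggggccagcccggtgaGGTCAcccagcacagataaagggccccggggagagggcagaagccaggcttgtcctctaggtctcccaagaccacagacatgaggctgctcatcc
Sprr2f at chr3:92364937-92365236, plus strand: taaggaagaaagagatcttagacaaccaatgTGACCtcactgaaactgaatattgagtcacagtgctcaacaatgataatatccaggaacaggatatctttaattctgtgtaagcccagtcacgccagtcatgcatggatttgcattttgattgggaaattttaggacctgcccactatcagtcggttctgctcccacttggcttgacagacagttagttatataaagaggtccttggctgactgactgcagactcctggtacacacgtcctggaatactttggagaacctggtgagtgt

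The half-site GGTCA was present in the windows of 5 of the 9 genes, Prap1, Fuom, Sprr2f, Guca2b and Ltf, and in 40.2% of the 27025 RefSeq windows searched, 1 per gene. With the start counted as 0, the first base of the match lay at -45 in Ltf, -24 in Guca2b, -157 in Fuom and -219 in Sprr2f. The Prap1 window held a pair, at -63 and -55, that face away from each other as TGACCNNNGGTCA. That arrangement was in 11 of 27025 windows (0.0407%), and it was looked for only after the Prap1 sequence had been seen. The full palindrome GGTCANNNTGACC was in the window of 0 of the 9 genes and in 0.0666% of all windows. The AP-1 site TGANTCA, whose ends are the same on both strands, was in the Sprr2f window at -197 and in 7.93% of all. TATAAA was in the windows of Spp1, Sprr2f and Kap and in 14.2% of all. All motifs were searched on both strands, and the letters describe these windows only. RefSeq lists another window each for Fuom and Spp1, and the one listed first was used.

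Seen by library, the 9 genes fell into no single order. Tumor 2 was the highest tumor for 8 of the 9, the exception being Ltf, where tumor 4 was slightly higher. Over all genes whose tumors did not tie, tumor 2 was the highest tumor for 19.1%. Tumor 3 was the lowest tumor for Spp1, Guca2b, Ltf, Lcn2 and Chil1, tumor 4 for Prap1, Fuom and Kap, and tumor 1 for Sprr2f. Tumors 2 and 4 were the 2 highest of all 9 libraries for 6 of the 9 genes (Spp1, Sprr2f, Guca2b, Ltf, Lcn2 and Chil1) and for 8.96% of all genes. These orders are part of what drew attention to the genes and are not a test. The 9 genes together took 0.0881% to 0.296% of all reads in the oviducts. They took 0.570% in tumor 1, 3.46% in tumor 2, 0.189% in tumor 3 and 1.55% in tumor 4. The 95% Wilson interval for tumor 2 was 3.45% to 3.47%, and for tumor 3 it was 0.186% to 0.191%, which covers counting error only, since these reads carry no molecular identifiers. The share of tumor 3 was thus no higher than that of the highest oviducts, but Ltf made up most of the share in every oviduct. It gave 33539 of the 37015 reads in oviduct 2 and 4073 of the 16463 in tumor 3. For 7 of the 9 genes tumor 3, like the other tumors, was above every oviduct.

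**Figure D1:**
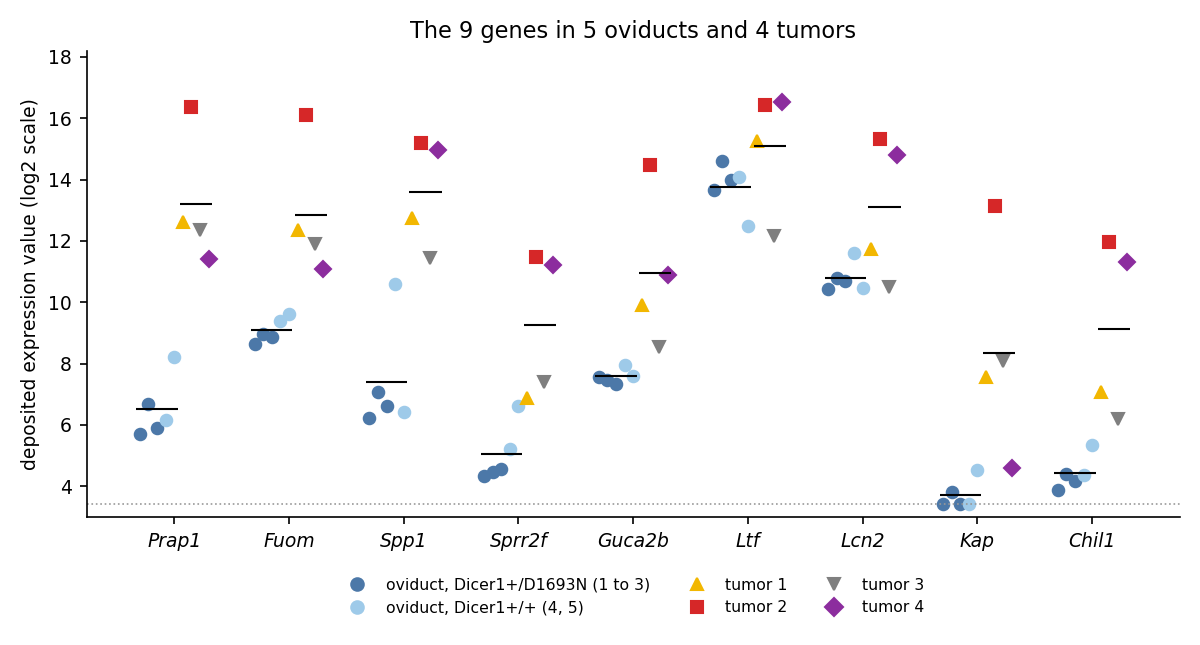
Deposited log2 expression values (vertical axis) of the 9 genes (horizontal axis) in each library, with oviducts as circles and each tumor with its own symbol; horizontal lines are the means of the 5 oviducts and of the 4 tumors, and the dotted line is the value of a gene without a read. Tumor 2 (red squares) is the highest tumor for 8 of the 9 genes, and for Ltf and Lcn2 tumor 3 lies among or below the oviducts.

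Every tumor was above every oviduct for 7 of the 9 genes, against 10.8% of all genes, and the exceptions were Ltf and Lcn2. The same 7 passed the limma call for higher values that 6.53% of all genes passed. Both counts rest on the contrast from which the genes were picked, so they add nothing to it.

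On the deposited log2 scale Prap1 had the highest difference of the 9, whereas by limma-voom and on log2(normalized reads + 1) Kap exceeded it (7.68 against 6.94, and 7.14 against 7.04). It measured 33.5, 82.3, 39.8, 51.9 and 278 normalized reads in oviducts 1 to 5 and 6242, 85005, 5151 and 2721 in tumors 1 to 4. Tumor 2 stood 13.6-fold above the next tumor, oviduct 5 stood 3.38-fold above the next oviduct, and the lowest tumor was 9.79-fold above oviduct 5. Means were 97.1 ± 103 (SD, n = 5) and 24780 ± 40177 (SD, n = 4), a log2 difference of 6.65 ± 0.90 (SE). Per kilobase of exon, Prap1 had rank 1 of 19171 genes in tumor 2, and it ranked 12th in tumor 3, 20th in tumor 1 and 77th in tumor 4. In the oviducts it ranked between 1014 and 8992. Of the 9 genes it was the most abundant per length in tumors 2 and 3, at 137104 and 8308 normalized reads per kilobase, against 25507 and 1329 for Ltf. In tumors 1 and 4 that place was held by Ltf, at 11406 and 27532 normalized reads per kilobase.

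Fuom lies next to Prap1 and had the same order of tumors. It measured 382, 482, 447, 644 and 768 normalized reads in oviducts 1 to 5 and 5199.5, 70236, 3829 and 2148 in tumors 1 to 4. The lowest tumor, tumor 4, was 2.80-fold above the highest oviduct, and the log2 difference was 3.76 ± 0.82 (SE). Reads of Fuom divided by reads of Prap1 came to 11.4, 5.86, 11.2, 12.4 and 2.76 in oviducts 1 to 5. In tumors 1 to 4 the ratio was 0.833, 0.826, 0.743 and 0.790, nearly the same in each tumor although Prap1 itself differed 31.2-fold between tumors 2 and 4. The ratio is not scaled by exon length, which is 3.272 kilobases for Fuom and 0.62 for Prap1. Per kilobase, Fuom was well below Prap1 in every tumor, at 1589.1, 21465.9, 1170.3 and 656.6 normalized reads in tumors 1 to 4. Prap1 was at 10068.5, 137104.1, 8307.8 and 4388.1. GENCODE places Prap1 on the plus strand of chromosome 7 at 140093395 to 140097200 and Fuom on the minus strand at 140096770 to 140102441 (GRCm38), so the genes run towards each other. Their ends overlap by 431 bases, of which 169 are exonic in both, 27.3% of the exonic bases of Prap1 and 5.17% of those of Fuom. Only 1 of the 14 annotated Fuom transcripts reaches the Prap1 exons. Whether counting used the strand is not given in the sources used here, so reads of Prap1 and of Fuom in that stretch cannot be told apart, and the Fuom values are uncertain to that extent. The genes on either side did not share the pattern. Caly, left of Prap1, fell from a mean of 391 to 5.06 normalized reads (log2 difference -4.59 ± 0.34, SE, adjusted p = 6.83e-06). Echs1, 3268 bases beyond Fuom, measured 923 ± 55.8 normalized reads (SD, n = 5) in the oviducts and 983 ± 237 (SD, n = 4) in the tumors (adjusted p = 0.818). Of 17 measured genes of fucose salvage and transfer, the pathway in which the Fuom enzyme would act, limma called 0 in either direction, with 4 at an unadjusted p under 0.05 and 0 called by limma-voom. There was 1 called higher under quantile normalization, without tumor 1, without tumor 4, and with no minimum change.

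**Figure D2:**
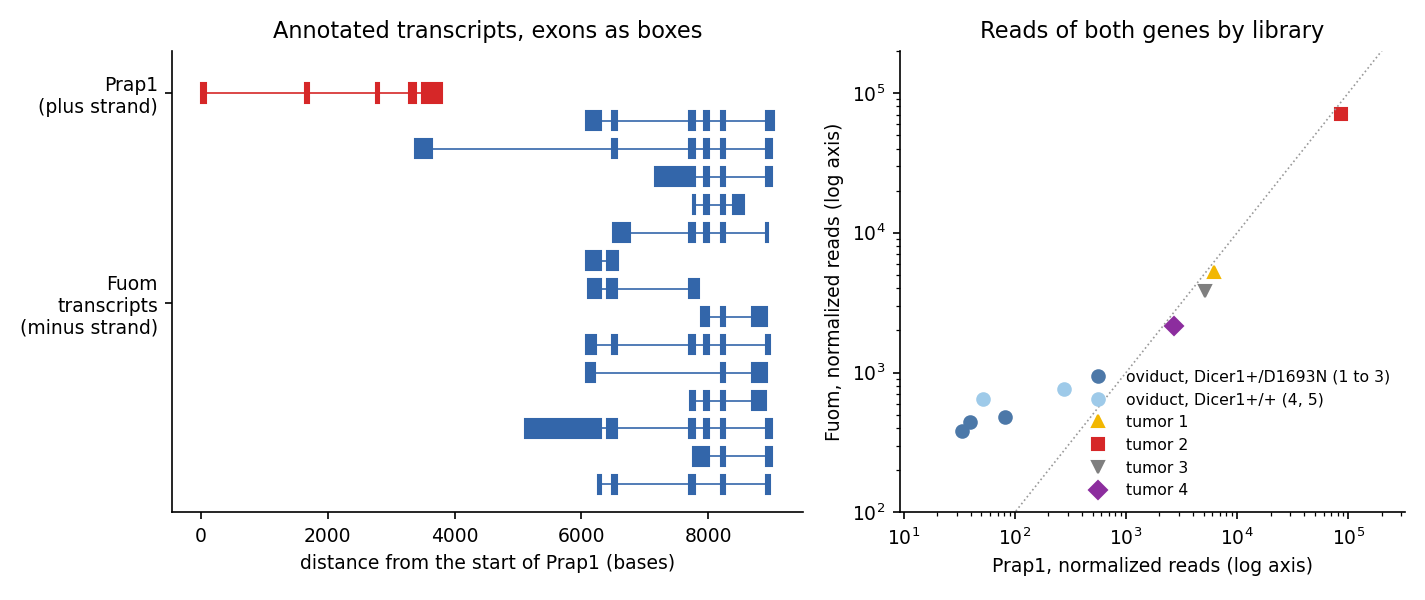
Left, annotated transcripts of Prap1 and Fuom with exons as boxes against the distance from the start of Prap1 in bases; right, normalized reads of Fuom (vertical log axis) against Prap1 (horizontal log axis) in each library, with a dotted line where both are equal. A Fuom transcript ends within Prap1, and the 4 tumors lie just under the line of equal reads, with ratios of 0.743 to 0.833, while the oviducts lie above it. Reads are not scaled by exon length.

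Kap was nearly absent from the oviducts. The oviducts held 7 reads in all, or 0, 0.749, 0, 0 and 6.7 normalized reads in oviducts 1 to 5, and tumors 1 to 4 measured 169, 8927, 251 and 7.36. Tumor 2 was 35.6-fold above tumor 3, and tumor 4 was only 1.10-fold above oviduct 5. Kap was thus high in 3 tumors, and its place above every oviduct in tumor 4 rests on a few reads. The log2 difference was 4.62 ± 1.31 (SE). Kap is best known from the proximal tubule of the kidney. On a list of 15 measured tubule genes limma called 0, with 2 at an unadjusted p under 0.05 and 1 called lower by limma-voom. Slc34a1 was at 0 to 4.72 normalized reads in the oviducts and at 0 in all 4 tumors, and Umod was at 0.971, 6.81, 0 and 0 in tumors 1 to 4. Lrp2, the endocytic receptor megalin, was at 276 to 1682 in the oviducts and 449.6, 2409, 4313 and 53.6 in tumors 1 to 4.

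Guca2b was the least variable of the genes in the oviducts. It measured 169.7, 157, 141, 227 and 172 normalized reads in oviducts 1 to 5 and 936, 22624, 351 and 1889 in tumors 1 to 4. All tumors were above all oviducts, but tumor 3 by 1.55-fold and tumor 2 by far more, at 12.0-fold the next tumor. The log2 difference was 3.37 ± 0.92 (SE), and without tumors 2 and 4 it was 1.63. Its neighbor Guca2a, which encodes the related ligand guanylin, was at 0 in the 5 oviducts and at 0, 10.2, 2.25 and 2.1 normalized reads in tumors 1 to 4. Gucy2c, the receptor of both peptides, was at 0 to 6.74 in the oviducts and 2.91, 9.09, 15.8 and 1.05 in tumors 1 to 4 (adjusted p = 0.322). The ligand was therefore abundant in libraries that held few reads of its receptor. Of 10 measured genes of intestinal epithelium, where uroguanylin is best known, 0 were called higher and 1 lower, Lgals4 (log2 difference -1.34 ± 0.32, SE, adjusted p = 0.0106).

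Sprr2f measured 4.46, 5.99, 6.96, 18.9 and 78.2 normalized reads in oviducts 1 to 5 and 97.1, 2858, 149.7 and 2333 in tumors 1 to 4. Tumors 2 and 4 stood 19.1-fold and 15.6-fold above tumor 3, and oviduct 5 reached 4.14 times the next oviduct. Tumor 1 was just 1.24-fold above oviduct 5. The log2 difference was 4.20 ± 0.98 (SE), and 2.10 without tumors 2 and 4. None of the 75-base stretches of Sprr2f occurs in another annotated gene, so reads of that length tell it from the other Sprr2 genes. The other Sprr2 genes measured were high in the same pair of tumors: Sprr2b was at 2.91, 1824, 3.38 and 2468 normalized reads in tumors 1 to 4 and at 0 to 16.8 in the oviducts. Sprr2d was at 0.971, 616, 0 and 130.4 in tumors 1 to 4, Sprr2a3 at 0, 135, 0 and 197 and Sprr2e at 0, 14.8, 0 and 26.3, and in no oviduct did any of these 3 exceed 11.2. With 2 high tumors and 2 near 0, none of the 4 was called (adjusted p = 0.0969, 0.0959, 0.194 and 0.168). Of 16 measured genes of squamous epithelium, 2 were called higher, Krt6b (28.2, 272, 4.5 and 30.5 normalized reads in tumors 1 to 4) and Lor, and 0 lower. The higher count was 1 without tumor 1 and without oviduct 1, 2, 4 or 5, and the Lor call was lost in 7 of 9 fits without 1 library. The keratin Krt5, which defines basal squamous cells, was at 269, 0, 0 and 1.05 in tumors 1 to 4 and at 4.47 to 30.9 in the oviducts, so it was absent or nearly so from tumors 2 and 4.

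Spp1 measured 54.7, 114, 77.6, 1520.2 and 65.9 normalized reads in oviducts 1 to 5 and 6872, 37610.2, 2736 and 31947 in tumors 1 to 4. Levels in tumors 2 and 4 were alike, 13.7-fold and 11.7-fold above tumor 3. Oviduct 4 stood alone among the oviducts, and the lowest tumor was 1.80-fold above it. The log2 difference was 6.20 ± 1.01 (SE). Per kilobase of exon Spp1 ranked 11th of 19171 genes in both tumors 2 and 4. An unspliced transcript model, Gm42793, shares 8.55% of the 75-base stretches of Spp1, which leaves the rest unique to it. Among 18 measured receptors and binding partners of the 9 products, 6 were called higher and 0 lower. They included the integrin subunits Itgb1, with 12211, 7027, 8026 and 11499 normalized reads in tumors 1 to 4 against 3636 to 5996 in the oviducts (log2 difference 1.11 ± 0.22, SE, adjusted p = 0.00386), and Itga5 (1.15 ± 0.22, SE, adjusted p = 0.00265). Itga8 was at 3156, 2447, 6816 and 87.3 in tumors 1 to 4 (adjusted p = 0.0274), with the lowest level in tumor 4, which had the next to highest Spp1 level. The Itga8 call was lost in 6 of 9 fits without 1 library and by limma-voom, and that of Itgb1 under quantile normalization and by limma-voom. The count fell to 2 without tumor 1, 3 without tumor 3, 3 without oviduct 2, and 3 by limma-voom. Itgav (adjusted p = 0.433), Itgb3 (0.967) and Cd44 (0.200), which encode the best known osteopontin receptors, were not called.

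Ltf was already abundant in the oviducts, where it ranked 15th to 174th of 19171 genes per kilobase. It measured 12957, 25109, 16174, 17434 and 5652 normalized reads in oviducts 1 to 5 and 39350.4, 88000.2, 4586 and 94984 in tumors 1 to 4. Tumors 1, 2 and 4 were above every oviduct, and tumor 3 was below all 5. The log2 difference of 1.33 ± 0.83 (SE) became -0.05 without tumors 2 and 4. Lcn2 measured 1366, 1754, 1619, 3119.8 and 1402 normalized reads in oviducts 1 to 5 and 3379, 40811, 1428 and 28706 in tumors 1 to 4. Tumors 2 and 4 stood 28.6-fold and 20.1-fold above tumor 3, tumor 1 was just above the highest oviduct, and tumor 3 was among the oviducts. Its log2 difference of 2.29 ± 0.88 (SE) became 0.32 without tumors 2 and 4. Slc22a17, the receptor for lipocalin 2, was at 665, 499.7, 768 and 132 in tumors 1 to 4 and 809 to 912 in the oviducts (adjusted p = 0.101).

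Chil1 measured 1.12, 5.24, 2.98, 4.72 and 22.3 normalized reads in oviducts 1 to 5 and 114, 3943, 54 and 2541 in tumors 1 to 4. Here tumors 2 and 4 stood 73.0-fold and 47.0-fold above tumor 3, the widest gap of this kind among the 9 genes, and the lowest tumor was 2.42-fold above oviduct 5. The log2 difference was 4.70 ± 1.09 (SE), and 2.20 without tumors 2 and 4. Il13ra2, a receptor of the protein, was called higher (39.8, 10.2, 34.9 and 14.7 normalized reads in tumors 1 to 4 against 0.749 to 8.93, log2 difference 1.04 ± 0.30, SE, adjusted p = 0.0248), and its order of tumors differed from that of Chil1. The call for Il13ra2 was lost in 5 of the 9 fits without 1 library. Among 18 measured relatives of the 9 genes, 1 was called higher, the chitinase-like Chil3 (log2 difference 2.13, a call lost in 7 of 9 fits without 1 library), and 3 lower, Chia1, Ovgp1 and Ptgds. Chit1, the nearest gene to the left of Chil1, was at 5.68 normalized reads or less in every library.

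**Figure D3:**
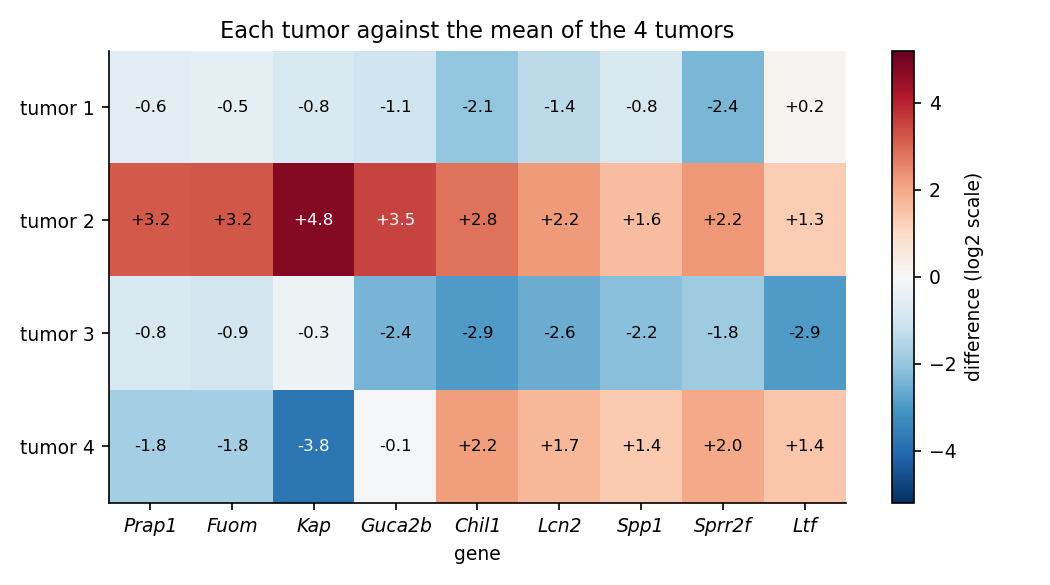
Difference of each tumor (rows) from the mean of the 4 tumors for each of the 9 genes (columns), on the deposited log2 scale, in color and as numbers. Tumor 2 is above the mean for all 9 genes, while tumor 4 is above it for Chil1, Lcn2, Spp1, Sprr2f and Ltf and below it for Prap1, Fuom and Kap.

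The tumors thus shared high values in different sets. Prap1, Fuom and Kap were highest in tumor 2 and lowest in tumor 4, at -1.77, -1.78 and -3.76 from the tumor mean on the log2 scale. Chil1, Lcn2, Spp1, Sprr2f and Ltf were high in tumors 2 and 4 together, tumor 4 lying 1.38 to 2.18 above the tumor mean. Guca2b was between the sets, with tumor 4 at -0.05. Genes with the most similar pattern were sought by Pearson correlation of log2 values over the 9 libraries, among 13742 genes with a mean of at least 50 normalized reads. These are descriptions over libraries of 2 tissues. For Prap1 they were Tarbp2 (0.990), Tbc1d10b (0.988) and Pwp1 (0.986), of which Tarbp2 had 484 normalized reads in tumor 2 and 294 in tumor 4. For Fuom they were Pwp1, Kap and Ier2, for Kap Fuom, 4930550L24Rik and Pwp1, so these 3 members shared partners. For Chil1 they were Clca4 (0.991), Slc5a1 and Cxcl5, for Sprr2f Tmem97 (0.993), Clic1 and Gjb2, and for Guca2b Akr1b7 (0.976), Pigr and Abi3. For Lcn2 they were Glrx (0.986), Spi1 and Rhog, for Ltf Fermt3 (0.971), Abcc3 and Rnf39, and for Spp1 Cd63 (0.984), Prcp and Rap1a. Spi1 and Fermt3 are known from leukocytes.

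Summed levels of leukocyte markers were highest in tumors 2 and 4, as were Ltf, Lcn2, Spp1 and Chil1, while single markers differed. This order was not particular to leukocyte markers. Among the tumors, the summed epithelial genes were also highest in tumors 2 and 4 (38151 and 60546 normalized reads), with tumor 2 within the range of the oviducts. On a list of 19 measured neutrophil genes 8 were called higher and 0 lower (median difference 1.46). Their summed level was 681 to 1017 normalized reads in the oviducts and 2530, 13633, 351 and 17805 in tumors 1 to 4. S100a8 measured 1.12 to 4.49 normalized reads in the oviducts and 409.8, 2963, 6.75 and 3645 in tumors 1 to 4 (log2 difference 5.10 ± 1.24, SE, adjusted p = 0.0106). S100a9 was likewise highest in tumors 2 and 4, at 607, 4316, 25.9 and 3676 in tumors 1 to 4. By limma-voom neither S100a8 nor S100a9 was called (adjusted p = 0.199 and 0.117). Granule genes differed from them and from each other: Camp was at 5.83, 10.2, 3.38 and 657 in tumors 1 to 4 and at 1.12 to 11.2 in the oviducts. Ngp was at 60.2, 23.9, 0 and 1329 in tumors 1 to 4 and at 0 to 0.995 in the oviducts, and Mpo at 1.94, 4.54, 0 and 321 in tumors 1 to 4. Mmp9, named after its values were seen, was at 139.8, 830.1, 23.6 and 1624 in tumors 1 to 4 and at 80.4 to 128 in the oviducts. All 4 of these were highest in tumor 4, and none was called. Mmp8 of the same list was not raised, at 65.1, 88.6, 0 and 260 in tumors 1 to 4 against 194 to 335 in the oviducts (log2 difference -1.85, not called). On a list of 19 measured macrophage genes 10 were called higher and 0 lower (median difference 1.86), among them Lyz2 (adjusted p = 0.00228), Trem2 (0.00627) and Gpnmb (2.94 ± 0.70 on the log2 scale, SE). Their summed level was 11641 to 17445 normalized reads in the oviducts and 54672, 66248, 15197 and 142139 in tumors 1 to 4. Apoe was the largest part of that sum in each tumor, at 29753, 30128, 7103 and 58953 in tumors 1 to 4. Several genes of the list were higher in tumor 1 than in tumor 2, among them Trem2 (457 against 406), Gpnmb (1510 against 1103) and Mrc1 (629 against 558). Others were higher in tumor 2. Csf1r, which defines macrophages, was at 519 to 733 in the oviducts and 719.6, 1867, 492 and 3077 in tumors 1 to 4. Tumors 2 and 4 were therefore the highest, and tumor 3 was within or below the oviducts, for both sums as for Ltf and Lcn2. The part of these cells in the levels of Ltf, Lcn2, Spp1 and Chil1 was not tested. The neutrophil count was 4 without tumor 2, 13 without tumor 3, and 3 by limma-voom. The macrophage count was 16 without tumor 3. With the Dicer1+/+ oviducts alone as controls, 0 genes of either list and 0 of the receptors and partners were called higher, where 358 of all genes were.

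**Figure D4:**
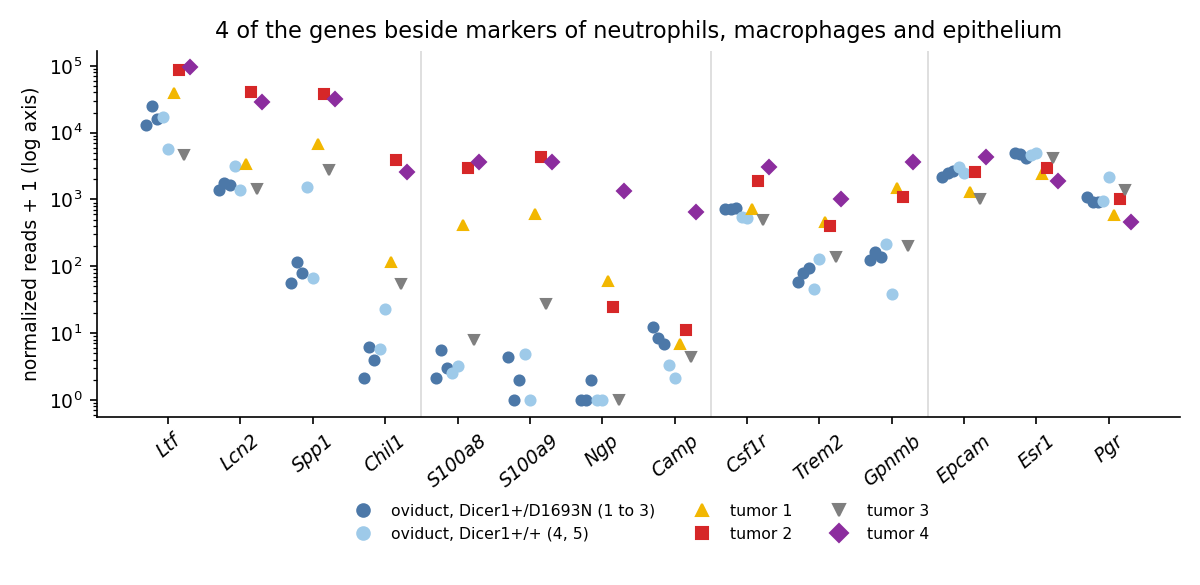
Normalized reads + 1 (vertical log axis) of Ltf, Lcn2, Spp1 and Chil1 beside neutrophil genes (S100a8, S100a9, Ngp, Camp), macrophage genes (Csf1r, Trem2, Gpnmb) and Epcam, Esr1 and Pgr in each library, with oviducts as circles and each tumor with its own symbol. Tumors 2 and 4 lead for S100a8, S100a9 and Csf1r, and tumor 4 is the highest for Ngp and Camp. Among the tumors, Epcam is also highest in tumors 2 and 4, with tumor 2 within the range of the oviducts.

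Markers of epithelium and other inflammatory genes were measured beside them. Of 19 measured epithelial genes 2 were called higher, among them Cldn4, and 3 lower, Cdh1, Ehf and Spint2, and their summed level was 35863 to 48490 normalized reads in the oviducts and 25504, 38151, 19428 and 60546 in tumors 1 to 4. The lower count was 1 without tumor 1, without tumor 3, and without oviduct 3 or 4, and 5 without tumor 4. Of 13 measured genes of oviduct secretory cells 1 was called higher, Wfdc2, and 2 lower, Ovgp1 and Slc1a3 (4 without tumor 4). Of 23 measured acute phase and NF-kB target genes 7 were called higher and 0 lower (12 higher without tumor 3, 4 by limma-voom), among them Cxcl5, with 104, 3644, 18 and 4573 normalized reads in tumors 1 to 4, and Socs3 (log2 difference 2.85 ± 0.34, SE, adjusted p = 0.000154). Pigr, the epithelial carrier of antibodies, was at 556, 6962, 328 and 2128 in tumors 1 to 4. Saa3, an acute phase gene, was at 9.71, 329, 0 and 2033 and was not called (adjusted p = 0.286). Of 8 measured bone genes, listed because osteopontin is a bone matrix protein, 0 were called higher and 1 lower, Sost, a call lost in 7 of 9 fits without 1 library.

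The other known estrogen-responsive products of the uterus moved in both directions. Of 29 measured, 4 were called higher (S100g, Gjb2, Wfdc2 and Il13ra2) and 3 lower (Areg, Aqp5 and Klk1), a median difference of 0.60 against -0.05 for all genes. S100g, a calcium-binding protein, was at 437, 4559, 1468 and 1351 normalized reads in tumors 1 to 4 against 282 to 648 in the oviducts (log2 difference 1.84 ± 0.54, SE, adjusted p = 0.0256). Gjb2, a gap junction protein, was at 67, 1119.7, 141 and 1963 in tumors 1 to 4 against 7.96 to 78.2 (3.26 ± 0.86, SE, adjusted p = 0.0159), high in tumors 2 and 4 like Sprr2f. Areg, an epidermal growth factor family ligand, was at 1.94, 10.2, 0 and 0 in tumors 1 to 4 against 65.9 to 118 (-2.93 ± 0.32, SE, adjusted p = 8.06e-05). The abundant genes Clu and C3 of the list were not called: Clu was at 3102, 21622, 1723 and 31932 in tumors 1 to 4 (adjusted p = 0.453) and C3 at 11227, 37952, 2774 and 53112 (0.697), tumors 2 and 4 again being the highest. Muc1 was at 420.5, 1599, 376 and 3702 (0.342). The count of higher calls was 2 without oviduct 1 or oviduct 2, 8 without tumor 3, 3 by limma-voom, which did not call Gjb2, and 1 with the Dicer1+/+ oviducts alone as controls.

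Receptors for ovarian hormones were not higher where these products were. Esr1 was at 4122 to 4938 normalized reads in the oviducts and 2389, 2925, 4213 and 1878 in tumors 1 to 4 (log2 difference -0.77 ± 0.21, SE, adjusted p = 0.0199, under the minimum change for a call). Tumor 3, the lowest tumor for 5 of the 9 genes, had the highest Esr1 level of the tumors. Pgr was at 1106, 923, 919, 962 and 2186 in oviducts 1 to 5 and 593, 1027, 1376 and 458 in tumors 1 to 4 (adjusted p = 0.280). Esr2 was at 136 normalized reads or less in every library (adjusted p = 0.682). Of 18 measured receptors and cofactors 1 was called higher, Foxa1 (37.9 normalized reads or less in every library, a call lost in 7 of 9 fits without 1 library and by limma-voom), and 2 lower, Greb1 and Foxa2. Greb1, a direct ESR1 target, had a log2 difference of -1.23 ± 0.39 (SE, adjusted p = 0.0357), and the call was lost in 6 of 9 fits without 1 library. Foxa2, needed for uterine glands, was at 254 to 352 normalized reads in the oviducts and fell to 1.94, 21.6, 46.2 and 20.0 in tumors 1 to 4 (adjusted p = 7.51e-05). Of 19 measured uterine gland and epithelium genes 4 were called higher (Wnt7a, Msx2, Hoxa10 and Hoxa11) and 3 lower (Foxa2, Lgr5 and Emx2), and by limma-voom the higher count was 2. The calls for Wnt7a and Lgr5 were each lost in 6 of 9 fits without 1 library. Hoxa11, a patterning gene of the uterus, was at 4.47 to 24.4 in the oviducts and 1076, 686, 494 and 24.2 in tumors 1 to 4 (log2 difference 3.43 ± 0.80, SE, adjusted p = 0.00860), lowest in tumor 4. By limma-voom Hoxa11 was not called (adjusted p = 0.107), nor with the Dicer1+/D1693N oviducts alone as controls.

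The oviduct genotypes offered a comparison that had no part in the choice of the genes. With all 9 libraries sharing 1 spread, limma called 0 of the 9 genes between Dicer1+/D1693N and Dicer1+/+ oviducts, against 0.0206% of all genes, and limma-voom also called 0. At an unadjusted p under 0.05 it was 0 of 9, against 2.75% of all genes. Differences ran from -1.87 ± 1.32 (SE) for Spp1 to 0.81 ± 1.16 (SE) for Ltf, each with an adjusted p of 1.0, and 8 of the 9 were negative. The share of all genes with a negative difference was not counted. The standard errors are wide because the tumors enter the shared spread. In the 5 oviducts alone, 2 of the 9 genes had an unadjusted p under 0.05, against 14.7% of all genes. Fuom was at 437 ± 50.9 normalized reads (SD, n = 3) in Dicer1+/D1693N oviducts and at 644 and 768 in the Dicer1+/+ ones. Its log2 difference was -0.67 ± 0.14 (SE, limma adjusted p = 0.182). Sprr2f was at 5.81 ± 1.26 normalized reads (SD, n = 3) against 18.9 and 78.2, a difference of -1.46 ± 0.42 (SE, limma adjusted p = 0.244). The adjusted test called neither.

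**Figure D5:**
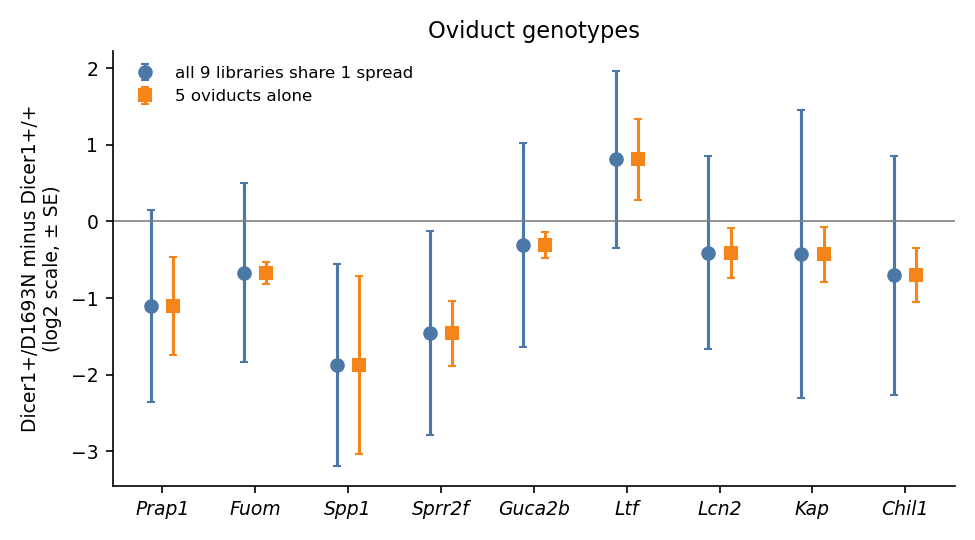
Difference between Dicer1+/D1693N and Dicer1+/+ oviducts (vertical axis, deposited log2 scale) for each of the 9 genes, with the standard error from all 9 libraries (circles) and from the 5 oviducts alone (squares). Of the 9 differences 8 are negative, and the errors from all libraries reach 0 for all but Spp1 and Sprr2f.

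Some of the genotype differences depended on single oviducts. With 1 library left out, those of Spp1, Lcn2 and Kap changed sign in some fits, and that of Ltf ranged from -0.0 to 1.62. Those of Prap1, Fuom, Sprr2f, Guca2b and Chil1 stayed negative, from -0.79 to -0.54 for Fuom and from -2.16 to -0.76 for Sprr2f. Oviduct 5 was the highest oviduct for Prap1, Fuom, Sprr2f, Kap and Chil1, 5 of the 9, and for 24.6% of all genes whose oviducts did not tie. The Spp1 difference was 0.21 without oviduct 4, and that of Prap1 was -0.07 without oviduct 5. Oviduct 5 also stood apart for hormone-related genes chosen here once their values were known. Padi2 was at 3099 normalized reads there and at 351 or less in the other oviducts, Cyp26a1 at 1371 and at 323 or less, and Pgr at 2186 and at 1106 or less. Oviduct 5 had the lowest Ltf level of the oviducts. The cycle stage of this animal is not given in the sources used here, and its part in these values was not tested.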

How the data were processed

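The deposited table gives log2 expression values made by the authors for 19435 genes in 9 libraries. Per the submitters' processing notes, FastQC 0.11.5, STAR 2.5.3a and HTSeq were used with GRCm38. The annotation, the use of strand and the transformation are not given in the sources used here. All columns share a floor of 3.43, and undoing a variance-stabilizing transformation with that floor gave whole reads (to within 0.05 of a read) for 100% of values, and each library's size factor. Every gene had at least 10 reads in all.

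Groups came from the labels. Tests used limma 3.58.1 (R 4.3.3) on the deposited log2 values, as two-sided moderated tests with a trend, and p-values were adjusted by Benjamini-Hochberg over all genes. Tumors were compared with oviducts in 2 groups, and oviduct genotypes in 3 groups sharing 1 spread. The fit was also run on simulated reads with known changes, whose spread was set alike for tumors and oviducts. That run does not cover genes that vary more among tumors than among oviducts. Of the symbols, 98.6% matched GENCODE M21, whose merged exons gave the lengths.

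The 9 genes, the 15 gene lists and the rule for named genes (the 9, called list genes, a fixed set, nearest genes and most similar genes) were chosen with earlier results of these data known. The everted half-site motif was chosen after a sequence was seen. Alternatives covered quantile normalization, limma-voom, other log scales, a filter, each library left out, each control genotype alone and a replicate block. The fit without tumors 2 and 4 was chosen after the values were seen. Replicate numbers are not known to pair oviducts with tumors.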

Additional observations from a re-analysis of the deposited data

Results flagged for a closer look

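Spp1 in oviduct 4, a Dicer1+/+ oviduct, measured 1520 normalized reads, while the other oviducts had 54.7 to 114.5. On the deposited log2 scale, its gap to the next oviduct was 0.804 of the whole range of the 5 oviducts, above the 0.71 of Dixon's test. On that scale it was the only such case in 18 groups checked (the oviducts and the tumors for each of the 9 genes). The check was not made on normalized reads, where gaps at high levels are wider. Chance gives about 1 such case in 20 groups.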

How the results depend on the processing

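Genes called higher and lower in tumors numbered 1269 and 2356. With no minimum log2 change they were 2446 and 3605, with the Dicer1+/+ oviducts alone as controls 358 and 1178, and under quantile normalization 1696 and 1943. The median difference of all genes moved from -0.05 to 0.08 under quantile normalization, -0.14 on the scale of reads per library total and -0.22 by limma-voom. All 9 genes kept a positive tumor difference in every planned fit, that is, with each library left out in turn, with either control genotype, and on each scale. Because the genes were selected on high tumor levels in these same libraries, that sign is a description and not a test. The difference of Kap, at 4.62 in the main fit, was 7.68 by limma-voom and 7.14 on log2(normalized reads + 1). Without tumors 2 and 4, a choice made after seeing the data, the difference was 2.10 for Sprr2f, 1.63 for Guca2b, 0.32 for Lcn2, 2.20 for Chil1 and -0.05 for Ltf. The estrogen-responsive list then had 6 lower calls, and its higher calls were 1 with the Dicer1+/+ oviducts alone and ranged from 2 to 8 with 1 library left out. Of 61 called list genes and neighbors, 37 stayed called in every fit without 1 library, 57 under quantile normalization and 44 by limma-voom. For the oviduct genotypes 1 gene was called higher and 3 lower. The higher count was 0 by limma-voom, both were 0 on log2(normalized reads + 1) and in the 5 oviducts alone, and with 1 library left out they ranged from 0 to 1 and 0 to 3. With 1 library left out the genotype difference ranged from -3.95 to 0.21 for Spp1 and from -0.98 to 0.16 for Lcn2 (positive without oviduct 4), and from -0.98 to 0.13 for Kap (positive without oviduct 5). Apart from the fits with fewer libraries, the cause of these shifts was not tested.

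With the replicate block 1034 genes were called higher and 2196 lower in tumors, and 48 of the 61 genes stayed called. Deviations of same-numbered oviducts and tumors correlated at 0.117, 0.061, -0.089 and 0.006, within the -0.146 to 0.139 of differently numbered ones. Expression values alone cannot show whether the numbers pair the samples. No paired analysis was possible for the oviduct genotypes because they share no replicate number. Depth limits Kap, Chil1 and Sprr2f in the oviducts, with 7, 37 and 113 reads over the 5 libraries.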
